A study of Mus musculus with 4 samples.

Results

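Capture spots rich in slow-fibre sarcomere RNA were examined in 1 section of uninjured tibial muscle. They were selected on the summed UMIs (unique molecular identifiers) of Myh7, Tnnt1, Tnni1, Tnnc1, Myl2 and Myl3 as a share of all UMIs of the spot. Of 2107 spots in the section, 2090 held 2000 or more UMIs, and the 209 spots at or above the 90th percentile of that share are called slow-rich spots below. The remaining 1881 spots are called other spots, and 209 of them at or above the 90th percentile of the Myh4 share, none of which was slow-rich, served as a second reference and are called Myh4-rich spots.

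The mice were Nse-Bmp4 on C57BL/6, aged 6-8 weeks, and carried a mouse Bmp4 cDNA under the rat neuron-specific enolase promoter, so that all groups, the uninjured one included, carried the transgene. Fresh frozen tibial muscle was taken without injury (HO-day 0) and 1, 3 and 7 days after cardiotoxin, and the series held 10835 spots over these 4 sections. Each day was 1 section, and the labels state that 3 muscles were mixed for a group without saying how they lie in a section. There was no section of mice without the transgene here.

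Skeletal muscle is built from fibres that use different myosin motors. Slow fibres carry the Myh7 motor, slow troponins and a slow calcium pump, contract with little fatigue and burn fuel in their mitochondria, whereas fast fibres carry Myh2, Myh1 or Myh4, with Myh2 fibres the most oxidative and Myh4 fibres the most glycolytic. The mouse tibialis anterior is a fast muscle with few slow fibres. A Visium spot is wider than a fibre and can hold several fibres and the cells between them, so a spot is not a cell type.

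The score had a threshold of 0.102% of UMIs. It ran from 0.103% over a median of 0.180% to 2.20% in slow-rich spots, and from 0 over a median of 0.00845% to 0.102% in other spots, of which 485 had no UMI of the 6 genes. The 5 spots just inside the threshold lay between 0.103% and 0.104%, and the 5 just outside between 0.101% and 0.102%, so the threshold cut a continuous range. Slow-rich spots held 70.5% of the UMIs of the 6 genes, and the 21 spots from the 99th percentile alone held 30.9%. Slow-rich spots were deeper, with a median of 25289 UMIs against 20775, and held 5030339 UMIs in all against 38815269.

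The 6 genes encode the slow or ventricular-type forms of the sarcomere: the Myh7 motor, its regulatory and essential light chains Myl2 and Myl3, and the troponin T, I and C subunits Tnnt1, Tnni1 and Tnnc1. Their promoters are shown because the 6 genes define the spots. They are the 150 bases before the most upstream RefSeq start of each gene (GRCm38.p6), written along the gene. Capitals mark matches on either strand to the E-box (CANNTG), to the M-CAT element with the letters CATTCC, to the CACC box with the letters CCACCC and to the TATA box with the letters TATAAA, where neighbouring matches could overlap.
Myh7 (chr14:54994627-54994776, minus strand): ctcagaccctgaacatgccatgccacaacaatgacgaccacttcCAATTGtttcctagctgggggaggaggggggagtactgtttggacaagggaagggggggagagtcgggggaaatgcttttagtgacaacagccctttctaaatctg
Tnnt1 (chr7:4515976-4516125, minus strand): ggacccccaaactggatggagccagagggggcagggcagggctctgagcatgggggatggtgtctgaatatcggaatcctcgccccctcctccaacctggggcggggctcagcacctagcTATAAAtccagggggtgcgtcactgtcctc
Tnni1 (chr1:135799271-135799420, plus strand): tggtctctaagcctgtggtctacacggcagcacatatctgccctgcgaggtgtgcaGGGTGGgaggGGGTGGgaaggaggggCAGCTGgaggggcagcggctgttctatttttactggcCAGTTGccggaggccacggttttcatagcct
Tnnc1 (chr14:31208162-31208311, plus strand): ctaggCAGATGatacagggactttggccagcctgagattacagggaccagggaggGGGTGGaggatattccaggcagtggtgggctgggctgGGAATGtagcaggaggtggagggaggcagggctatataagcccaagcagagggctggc
Myl2 (chr5:122092574-122092723, plus strand): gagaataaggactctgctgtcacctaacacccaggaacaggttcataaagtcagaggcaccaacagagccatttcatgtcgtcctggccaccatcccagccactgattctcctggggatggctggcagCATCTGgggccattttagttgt
Myl3 (chr9:110763528-110763677, plus strand): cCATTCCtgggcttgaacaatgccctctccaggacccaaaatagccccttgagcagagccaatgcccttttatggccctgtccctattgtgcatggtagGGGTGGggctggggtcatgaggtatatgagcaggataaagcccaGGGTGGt

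An E-box stood in 4 of the 6 windows, against 47.7% of 32851 RefSeq promoter windows of the same length. The CACC box stood in 3 of 6, against 19.7%, and M-CAT in 2 of 6, against 7.59%. TATAAA stood in 1 of 6, that of Tnnt1, against 7.57%. Such matches are letters only and say nothing of binding.

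Introns of slow myosin genes also carry microRNAs of the slow programme. The mature forms hosted by Myh7 and Myh7b are given with their seed (bases 2 to 8) in capitals. The seeds share their first 6 of 7 bases. The microRNA genes are not among the 32285 features, so their levels were not measured.
mmu-miR-208b-3p (chr14:54975710-54975731, minus strand, inside Myh7): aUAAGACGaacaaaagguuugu
mmu-miR-499-5p (chr2:155622893-155622913, plus strand, inside Myh7b): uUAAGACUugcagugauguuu

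As CPM (UMIs per 1000000 of the group's total), the 6 genes stood as follows, with no test since they chose the spots. Myh7 was at 622 CPM in slow-rich spots, 20.3 in other spots and 6.60 in Myh4-rich spots. Tnnt1 was at 476, 20.1 and 9.65 CPM, Tnni1 at 189, 8.32 and 3.30, and Tnnc1 at 472, 17.8 and 9.40, in the same order. Myl2 was at 653, 30.3 and 9.91 CPM. Myl3 was the most abundant of the 6 in UMIs, at 921, 83.9 and 18.5 CPM, and was the one that other spots held most of.

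Single spots spread widely. Myh7 ran from 0 over a median of 322 to 5908 CPM in slow-rich spots, 17 of which had no Myh7 UMI, and from 0 over 0 to 421 CPM in other spots. Tnnt1 ran from 0 over 236 to 4896 CPM in slow-rich spots. Myl3 ran from 0 over 668 to 4239 CPM and was missing from 3 slow-rich spots. Of the 209 Myh4-rich spots, 24 held a Myh7 UMI, at up to 164 CPM. Slow-rich is thus a range of a sum, and not all 6 genes were detected in every spot.

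**Figure D1:**
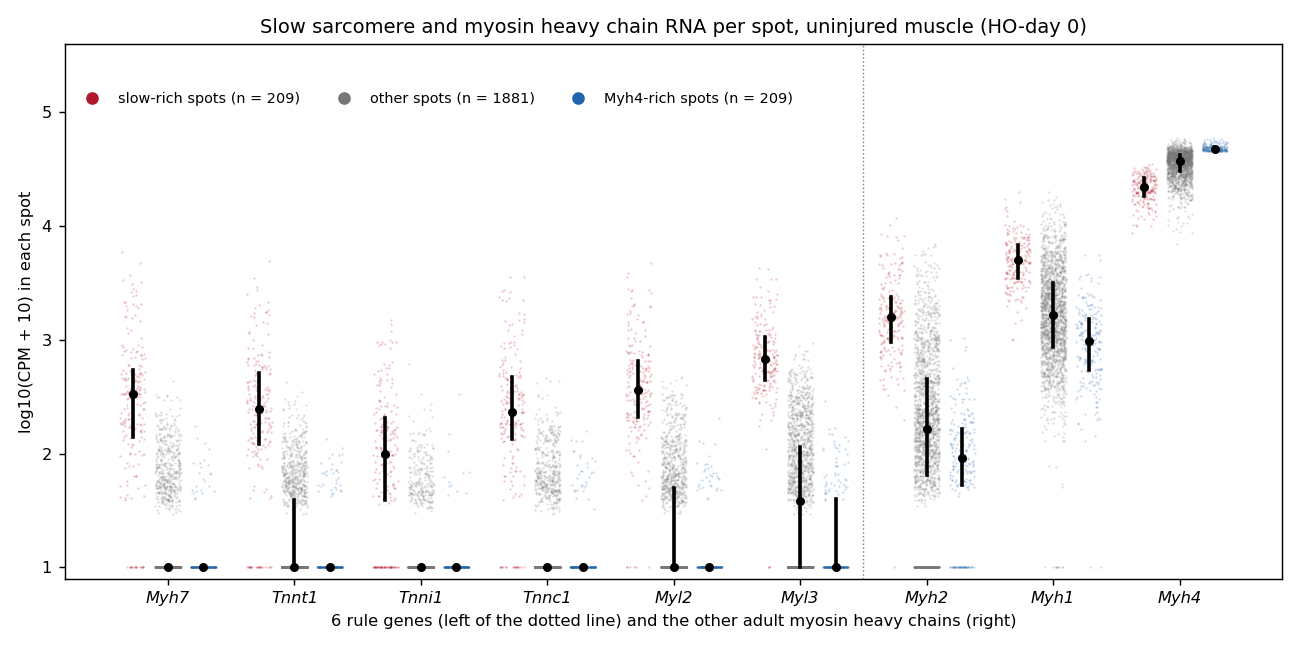
Each point is 1 spot of the uninjured section, as log10(CPM + 10), for the 6 genes of the rule and the other adult myosin heavy chains. Black dots are medians and bars run from the 25th to the 75th percentile, and the other spots include the Myh4-rich ones. Median Myh7 was 322 CPM in slow-rich spots and 0 in both other groups, while Myh4 stayed the most abundant chain in all 3.

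The label of slow fibre held only as an enrichment. Visium UMIs tag the poly(A) end of a transcript and do not scale with its length, so length does not set the shares below. Other differences in capture between genes were not tested, so the shares are of UMIs. Of the UMIs of the 4 adult myosin heavy chains, Myh7 took 2.08% (95% Clopper-Pearson interval 2.01 to 2.15) in slow-rich spots, Myh2 7.23% (7.10 to 7.36), Myh1 18.3% (18.1 to 18.5) and Myh4 72.4% (72.2 to 72.6). In other spots the shares were 0.0524%, 1.24%, 6.55% and 92.1%, and in Myh4-rich spots 0.0132%, 0.248%, 2.26% and 97.5%. Myh4 had the most UMIs of the 4 in 204 of 209 slow-rich spots, Myh1 in 4, Myh2 in 1 and Myh7 in 0. The highest Myh7 share of any slow-rich spot was 20.3%, and the median was 0.986%. All intervals here and below cover counting error only, since spots of 1 section are not replicates.

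Myh2, the chain of fast oxidative fibres, was 4.49-fold higher in slow-rich than in other spots (2163 against 482 CPM; exact Poisson interval of the ratio 4.38 to 4.60), and 17.4-fold higher than in Myh4-rich spots (124 CPM). Over spots it ran from 0 over 1564 to 11692 CPM in slow-rich spots and from 0 over 155 to 6907 CPM in other spots, so the groups overlapped. Myh1, the chain of intermediate fast fibres, was 2.15-fold higher (5463 against 2538 CPM; 2.12 to 2.18). Myh4 was the chain that was lower, at 21661 against 35674 CPM (ratio 0.607; 0.603 to 0.611). In UMIs, slow-rich spots held more Myh2 and Myh1 than Myh7. In spots that mix fibres, fewer fibres of a type and less RNA per fibre cannot be told apart.

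Over the whole section, all genes but the 6 with at least 100 UMIs were compared as CPM ratios. Against other spots, 10822 genes were compared, of which 565 (5.22%) were at 1.5-fold or more and 304 (2.81%) at 1/1.5-fold or less, and the median log2 ratio was 0.09. The counting interval lay apart from 1 for 491 of the 565 and 190 of the 304. Against Myh4-rich spots 6276 genes were compared, of which 1362 (21.7%) were higher by that measure and 125 (1.99%) lower, with a median of 0.24. TMM scaling lowers every log2 ratio by 0.12 in the first comparison and by 0.31 in the second, so smaller differences than these depend on the scaling.

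Slow-fibre genes that the rule did not use were higher in slow-rich spots. Of 12 listed genes 10 had enough UMIs, and 9 of these 10 were at 1.5-fold or more against other spots, where 5.22% of all genes were. The median log2 ratio of the list was 2.28 against other spots and 3.52 against Myh4-rich spots. The list was drawn up with results of these data known, and spots were chosen on genes that fibres co-express, so no test is given. Summed, the list was only 1.82-fold higher (3913 against 2151 CPM), since Car3, the carbonic anhydrase of slow fibres and adipocytes, was at 1422 against 1478 CPM and made up much of the sum.

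Among thin-filament and Z-disc genes, Tpm3, slow tropomyosin, was at 300 CPM in slow-rich spots against 47.9 in other spots (6.26-fold; 5.84 to 6.70). Over spots Tpm3 ran from 0 over 141 to 3073 CPM, and from 0 over 30.1 to 818 CPM in other spots. Csrp3, the muscle LIM protein of the Z-disc, was at 191 against 27.5 CPM, the largest ratio among genes of 50 CPM or more (6.96-fold; 6.37 to 7.60), and at 5.59 CPM in Myh4-rich spots. It was undetected in 23 of 209 slow-rich spots and in 1433 of 1881 other spots. Myoz2, which ties calcineurin to the Z-disc, was at 152 against 28.0 CPM (5.42-fold; 4.93 to 5.95). Ankrd2, an ankyrin-repeat protein that responds to stretch, was at 213 against 48.5 CPM (4.38-fold; 4.06 to 4.73). Fhl1, a LIM protein of the sarcomere, was more abundant, at 1438 against 368 CPM (3.91-fold; 3.80 to 4.02), and 206 of 209 slow-rich spots lay above the median of other spots.

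Thick-filament and M-band genes were of the same kind. Mybpc1, slow myosin-binding protein C, was at 1239 against 413 CPM (3.00-fold; 2.92 to 3.09), and was found in each of the 209 slow-rich spots, at 302 CPM or more. Myom3, a myomesin of the M-band, was at 28.2 against 4.41 CPM (6.41-fold; 5.09 to 8.05), and Myl6b, a slow essential light chain, at 16.1 against 1.67 CPM (9.62-fold; 6.85 to 13.5). Myh7b, a slow-type myosin, had 37 UMIs in slow-rich and 30 in other spots and was below the minimum.

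For calcium handling, Atp2a2, the slow and cardiac calcium pump SERCA2, was at 258 against 63.8 CPM (4.04-fold; 3.78 to 4.33). Casq2, its partner calsequestrin in slow fibres and heart, was at 82.5 against 37.2 CPM (2.22-fold; 1.98 to 2.47). Pln, the inhibitor of SERCA2, had 23 UMIs in slow-rich and 41 in other spots, too few for the comparison. Atp1b1, a sodium pump subunit, was at 258 against 86.3 CPM (2.99-fold; 2.80 to 3.18).

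The fast isoforms remained far more abundant throughout. Of the Tnnc1 and Tnnc2 UMIs in slow-rich spots, slow Tnnc1 took 3.25%, against 0.103% in other and 0.0473% in Myh4-rich spots. The slow pump Atp2a2 took 1.56% of the Atp2a2 and Atp2a1 UMIs, against 0.352% and 0.217%. Slow Tpm3 took 2.23% of its pair with Tpm1, against 0.239% and 0.109%. The largest slow shares were those of Mybpc1 over Mybpc2, at 30.8%, 8.73% and 2.94%, and Actn2 over Actn3, the Z-disc actinins, at 23.2%, 8.65% and 3.99%. In all 13 pairs the slow share was highest in slow-rich and lowest in Myh4-rich spots, and in none did it pass 30.8%. For 6 of the pairs the slow gene was one of the rule, and the Myh4-rich spots were chosen on Myh4.

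**Figure D2:**
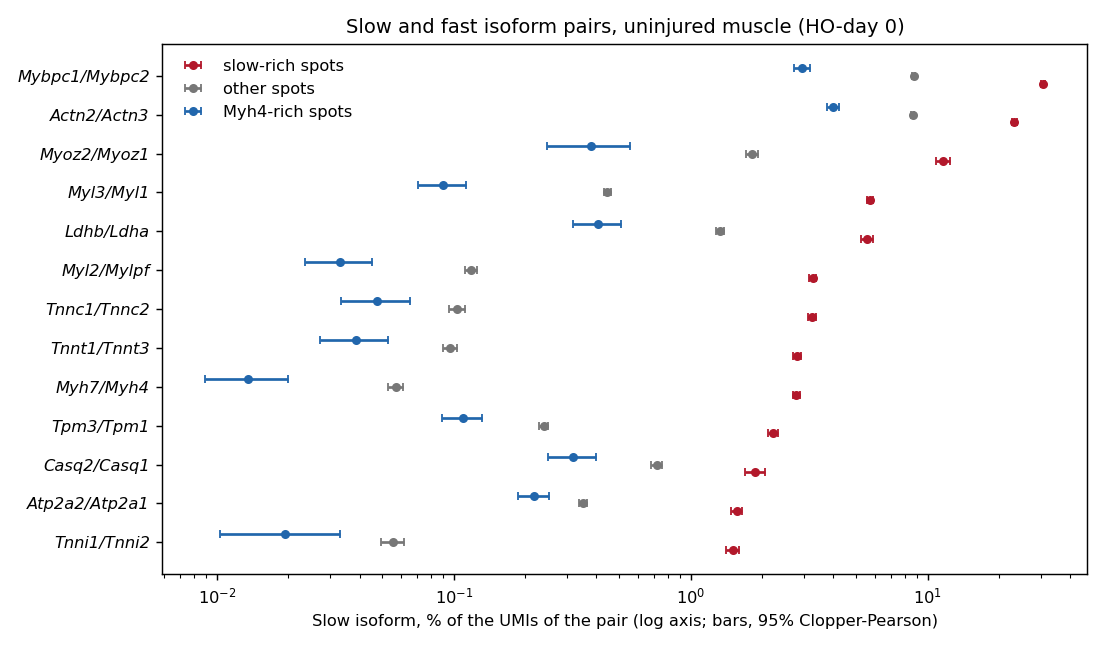
Points give the slow isoform as a percent of the UMIs of 13 slow and fast isoform pairs in slow-rich, other and Myh4-rich spots of the uninjured section, on a log axis, with 95% Clopper-Pearson bars. The order of the groups was alike in all pairs, and Mybpc1 reached 30.8% of its pair while Tnni1 reached 1.51%.

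Fast-fibre genes were lower as a list, by smaller ratios than those of the slow-fibre list. Summed, they were at 160899 CPM in slow-rich against 209264 CPM in other spots. For that sum, 0 of 209 slow-rich spots lay above the median of other spots. Of 16 listed genes 3 were at 1/1.5-fold or less against other spots, where 2.81% of all genes were, and 1, Myh1, was at 1.5-fold or more. The list median was -0.34 against other spots. Against Myh4-rich spots it was -0.60 and 9 of 16 were lower by that measure, where 1.99% of all genes were. Those spots were chosen on Myh4, a gene of the list, so that comparison favours a lower list by construction. Besides Myh4, the genes lower against other spots were Mybpc2, fast myosin-binding protein C, at 2784 against 4312 CPM (ratio 0.646), and Tpm1, at 13172 against 19975 CPM (0.659). Pvalb, the calcium buffer parvalbumin of fast fibres, was at 13866 against 17602 CPM (0.788).

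The lowest ratios of all included other muscle genes. Actc1, cardiac alpha-actin, was at 2068 CPM in slow-rich spots against 6585 in other and 9270 in Myh4-rich spots (0.314; 0.308 to 0.320). Over spots Actc1 ran from 646 over 2063 to 8953 CPM and from 419 over 6860 to 16000 CPM in other spots, and 1 of 209 slow-rich spots lay above the median of other spots. Mybph, myosin-binding protein H, was at 345 against 1041 CPM (0.332; 0.316 to 0.348), with 3 slow-rich spots above that median. Mical2, an actin-oxidising enzyme, was at 19.9 against 75 CPM (0.265). Prkag3, the AMP-kinase subunit of glycolytic fibres, was at 64.6 against 138 CPM (0.469). Tceal7, Plcd4 and the transcript B230312C02Rik had ratios of 0.502, 0.570 and 0.562, and all 7 of these genes were lower against Myh4-rich spots too, at ratios between 0.178 and 0.433. Ighm, an immunoglobulin heavy chain, was at 16.9, 42.7 and 53.3 CPM in slow-rich, other and Myh4-rich spots.

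Genes of oxidative metabolism were higher by a smaller and even amount. Of 79 nuclear genes of the 5 respiratory complexes, none was at 1.5-fold or more against other spots, and the median log2 ratio was 0.23 where that of all genes was 0.09. Under TMM the median was 0.11. Against Myh4-rich spots the median was 0.40, and 12 of 79 were at 1.5-fold or more, where 21.7% of all genes were. The subunits varied little: Cox7a1, the muscle form of a complex IV subunit, was at 951 against 684 CPM (1.39-fold), Atp5g3 of ATP synthase at 2049 against 1506 CPM (1.36-fold) and Uqcrb of complex III at 595 against 569 CPM (1.05-fold). The 13 mitochondrially encoded genes had a median of 0.28, and summed to 165408 against 131402 CPM. Citric acid cycle genes had a median of 0.28, and Idh2 was the 1 of 15 at 1.5-fold or more (161 against 78.4 CPM, 2.05-fold), near the 5.22% of all genes.

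Genes of fatty acid uptake and oxidation had larger ratios. Of 26 genes 9 were at 1.5-fold or more against other spots, where 5.22% of all genes were, and none at 1/1.5-fold or less, and the list median was 0.51. Against Myh4-rich spots 22 of 26 were at 1.5-fold or more, where 21.7% of all genes were, with a median of 0.89. Fabp3, the fatty acid carrier of heart and oxidative muscle, was at 1062 against 523 CPM (2.03-fold; 1.97 to 2.09). Lpl, the lipase that frees fatty acids from lipoproteins, was at 374 against 218 CPM (1.71-fold), Acaa2, the thiolase of the last oxidation step, at 253 against 151 CPM (1.68-fold) and Plin5, of lipid droplets beside mitochondria, at 19.9 against 8.71 CPM (2.28-fold). Pdk4, which shuts off pyruvate entry into mitochondria, was at 195 against 119 CPM (1.63-fold).

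Oxygen and lactate genes had larger ratios than the respiratory chain. Mb, myoglobin, was at 2887 CPM in slow-rich, 954 in other and 315 in Myh4-rich spots (3.03-fold against other spots; 2.97 to 3.08). It ran from 0 over 2499 to 8756 CPM in slow-rich spots and from 0 over 510 to 11918 in other spots, whose highest spot was thus above all slow-rich ones. Ldhb, the lactate dehydrogenase subunit of oxidative tissue, was at 227 against 58.4 CPM (3.88-fold; 3.61 to 4.17), and took 5.55% of Ldhb and Ldha UMIs against 1.33%. Slc16a1, a lactate importer, was at 52.7 against 25.2 CPM (2.09-fold), while Slc16a3, the exporter of glycolytic fibres, was at 299 against 353 CPM (0.845). Ckmt2, mitochondrial creatine kinase, was at 1874 against 1123 CPM (1.67-fold). Mstn, myostatin, was at 25.8 against 46.6 CPM (0.555).

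Of 20 glycogen and glycolysis genes 1 was at 1.5-fold or more and 1 at 1/1.5-fold or less, near the 5.22% and 2.81% of all genes, and the median was -0.24. Fbp2, muscle fructose bisphosphatase, was at 29.8 against 48.2 CPM (0.619) and Phkg1, the catalytic subunit of phosphorylase kinase, at 240 against 336 CPM (0.714). Hk2, a hexokinase, was on the other side, at 139 against 92.3 CPM (1.5-fold).

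Among regulators, 14 of 17 genes of the slow or oxidative programme had enough UMIs, 4 of these 14 were at 1.5-fold or more, where 5.22% of all genes were, and the median was 0.34 beside 0.09 over all genes. They were Esrrg, an orphan receptor that drives oxidative genes (13.9 against 4.92 CPM, 2.83-fold; 2.12 to 3.74), Perm1, which acts with it (87.7 against 49.8 CPM, 1.76-fold), Rcan1, a target and inhibitor of calcineurin (89.9 against 52.8 CPM, 1.70-fold), and Ppargc1a, the coactivator of mitochondrial biogenesis (17.1 against 10.6 CPM, 1.61-fold; 1.26 to 2.03). Nfatc1, which calcineurin activates, was at 27.6 against 25.4 CPM and its interval held 1. Of 10 genes listed as regulators of fast fibres, a label not tested here, Mafa was at 1/1.5-fold or less (110 against 174 CPM, ratio 0.633). Vgll2 was at 1.5-fold or more (73.8 against 34.2 CPM, 2.16-fold). The median of the 10 was 0.07 and was -0.05 under TMM.

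Small heat-shock and strain genes were mixed. Of 11 genes 4 were at 1.5-fold or more, where 5.22% of all genes were. They were Fhl1 above, Hspb7 at 213 against 68.0 CPM (3.13-fold; 2.92 to 3.36), Hspb6 at 858 against 471 CPM (1.82-fold) and Cryab at 1033 against 598 CPM (1.73-fold), all chaperones or partners of the sarcomere. Hspb8 was at 231 against 295 CPM (0.783), and Ankrd1 had 0.795 against 3.04 CPM.

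**Figure D3:**
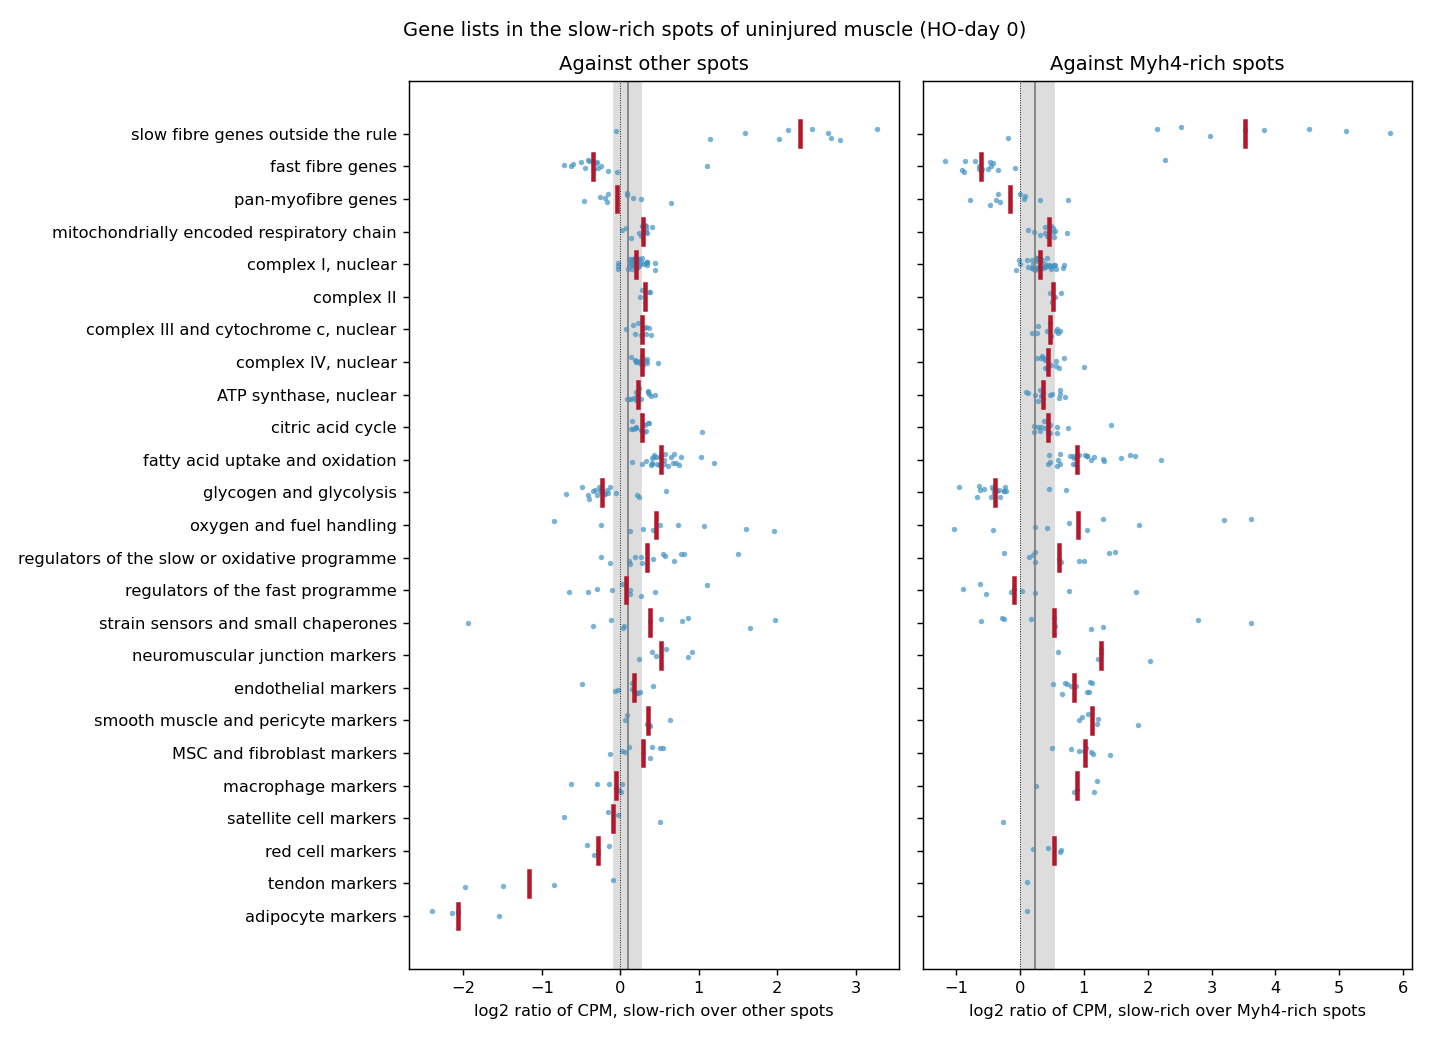
Each point is a gene with at least 100 UMIs, as the log2 ratio of its CPM in slow-rich spots to other spots (left) or Myh4-rich spots (right), for 25 gene lists, and red bars are list medians where 3 or more genes were left. The grey line and band are the median and the range from the 25th to the 75th percentile of all genes. Slow-fibre genes outside the rule stand at a median of 2.28 on the left and 3.52 on the right, and adipocyte markers at -2.07 on the left.

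The score did not rank all these genes alike. In 6 bands of rising score, the Myh7 share of the 4 chains went from 0.0103% in the lower 1045 spots to 0.231% between the 75th and 90th percentiles, 0.600% between the 90th and 95th, 1.80% between the 95th and 99th, and 9.40% in the top 21 spots. The Myh2 share went from 0.362% to 4.53%, then stayed at 7.60%, 6.77% and 7.31% in the 3 upper bands. Tpm3 and Atp2a2 went on like Myh7, with Tpm3 at 115, 262 and 1130 CPM and Atp2a2 at 122, 241 and 832 CPM over the 3 upper bands. Mb was at 2662, 2747 and 4207 CPM, Fabp3 at 1016, 1007 and 1417, and Csrp3 at 149, 199 and 327. The nuclear respiratory chain summed to 62928, 63868 and 67603 CPM. Above the threshold, then, Myh7 was higher in each band by construction and Tpm3 and Atp2a2 stood higher in each band, while Myh2 and Fabp3 were near level up to the 99th percentile.

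**Figure D4:**
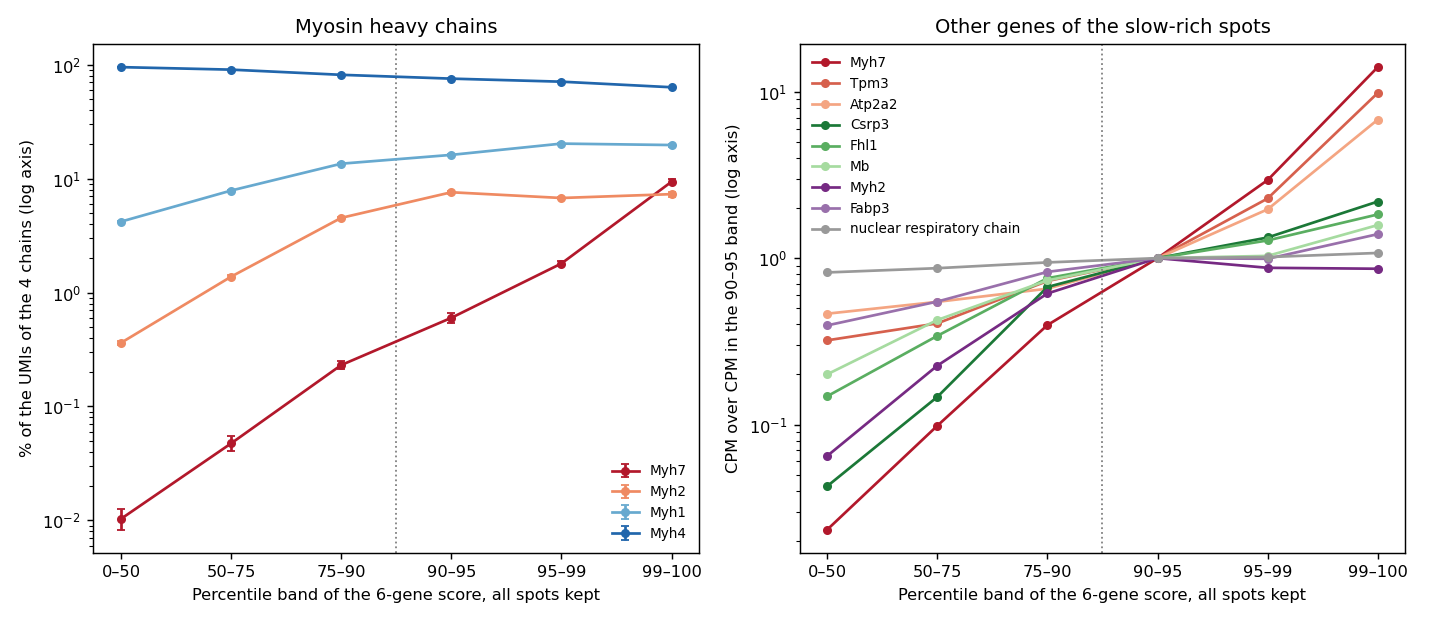
The left panel gives the share of the 4 adult myosin heavy chains in 6 bands of the score, with 95% Clopper-Pearson bars, and the right panel the CPM of other genes relative to the band from the 90th to the 95th percentile, both on log axes. Slow-rich spots lie right of the dotted line. Myh7 goes from 0.600% to 9.40% there while Myh2 stays between 6.77% and 7.60%.

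Over the 209 slow-rich spots, some genes went with Myh7, some with Myh2 and some with both. These are Spearman correlations of CPM over spots that share 1 library and were selected on 6 of the genes, which shapes them, and they are given without a test. Myh7 had a rho of 0.63 with Tnnc1, 0.61 with Myl2, 0.59 with Tpm3 and 0.48 with Atp2a2. Myh2 had a rho of 0.69 with Mb, 0.65 with Fabp3, 0.59 with Ckmt2, 0.52 with Actn2, 0.44 with Ldhb and 0.43 with Ankrd2. The rho of Myh7 with each of these 6 genes was 0.10 or less. Of the rule, Myl3 had 0.31 with Myh7 and 0.41 with Myh2. Others lay between, with Fhl1 at 0.27 and 0.37, Myoz2 at 0.29 and 0.36 and Tcap, titin cap, at 0.24 and 0.30. The slow-fibre list was divided, since 4 of its 10 measured genes had the higher rho with Myh7 and 6 with Myh2, at medians of 0.21 and 0.22.

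Summed fatty acid genes had a rho of 0.66 with Myh2 and 0.02 with Myh7, and 24 of the 26 had a higher rho with Myh2. The nuclear respiratory chain had 0.49 with Myh2 and 0.07 with Myh7, and also 0.49 with the UMIs of the spot. Depth had a rho of 0.15 with Myh2, 0.18 with Myh7 and 0.31 with Mb. Myh7 and Myh2 had a rho of -0.22 over the slow-rich spots but 0.47 over all 2090 spots, where Mb had 0.45 with Myh7 and 0.74 with Myh2. Tpm3 had 0.34 with Myh7 and 0.33 with Myh2 over all spots.

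The other tissue in slow-rich spots was also counted. Adipocyte markers were lower, with all 5 measured genes of 6 at 1/1.5-fold or less, where 2.81% of all genes were. Their median was -2.07, and they summed to 51.7 against 247 CPM. Cfd, adipsin, was at 35.0 against 185 CPM (0.189; 0.162 to 0.220), and the fat synthesis genes Scd1, Fasn and Thrsp had ratios of 0.327, 0.432 and 0.521. Tendon markers had a median of -1.17, with 3 of the 4 measured genes of 5 at 1/1.5-fold or less, beside 2.81% of all genes. Among them was Thbs4, a matrix protein of tendon (42.9 against 77.0 CPM, 0.558). Against Myh4-rich spots Cfd and Thbs4 had ratios of 1.08 and 1.08, since those spots also held little of them. The part of fat and tendon in the other ratios was not tested.

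Endothelial, smooth muscle and stromal markers were near those of other spots but above Myh4-rich spots. Spots chosen on a high Myh4 share of all UMIs leave less room for RNA of other tissue by construction. Pan-myofibre genes summed to 89435 CPM in slow-rich and 125120 CPM in Myh4-rich spots. The 10 endothelial genes had a median of 0.17 against other spots and 0.84 against Myh4-rich spots, where 9 of 10 were at 1.5-fold or more, beside 21.7% and a median of 0.24 over all genes. Summed, they were at 567, 519 and 317 CPM in slow-rich, other and Myh4-rich spots. Smooth muscle and pericyte genes had medians of 0.35 and 1.14, and MSC (mesenchymal stromal cell) and fibroblast genes 0.29 and 1.02, with Col1a1, a collagen of the matrix, at 2693, 2196 and 1212 CPM. The angiogenic factor Vegfa was at 128, 89.8 and 61.7 CPM. Macrophage markers had a median of -0.05 against other spots. Set against the 663 other spots with a like share of pan-myofibre genes, the endothelial median was -0.15 and the stromal -0.03. There 134 of 9139 genes were at 1.5-fold or more. The slow-fibre list had 1.71, in the same slow-rich spots, which were chosen on genes that fibres co-express with it.

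Neuromuscular junction markers were higher, with 3 of the 6 measured genes of 7 at 1.5-fold or more, where 5.22% of all genes were, and a median of 0.52. Chrne, the adult subunit of the acetylcholine receptor, was at 29.2 against 19.5 CPM (1.5-fold). Over the 3 upper bands of the score, from the 90th, 95th and 99th percentiles, Chrne was at 45.0, 15.7 and 12.9 CPM and the summed list at 215, 93.5 and 177 CPM, where other spots held 114 CPM. With the 95th percentile as the threshold the log2 ratio of Chrne was -0.47.

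Embryonic genes, and heart genes other than Actc1, were scarce. Of 6 regeneration genes 5 had enough UMIs, and 4 of these 5 were at 1.5-fold or more, where 5.22% of all genes were. Levels were low, with Myl4, an embryonic light chain, at 29.2 against 14.4 CPM and Tnnt2, cardiac troponin T, at 7.16 against 2.91. Ncam1 was at 9.94 against 5.44 and Myh8, the perinatal chain, at 4.97 against 2.86 CPM. Myog, the other measured gene, was within 1.5-fold. Myh3, the embryonic chain, had 31 UMIs in slow-rich and 45 in other spots, below the minimum. Summed, the list was at 105 against 78.9 CPM (ratio 1.32). Over spots, the summed list had a median of 49.2 CPM in slow-rich and 51.0 CPM in other spots. Above the median of other spots lay 103 of 209 slow-rich spots, and the highest slow-rich spot held 2200 CPM. Nppa and Nppb had no UMI in the 2090 spots, which allows up to 3 UMIs each, and Myl7 had 0 in slow-rich spots and 2 in others. Myh6 had 32 of the 5030339 UMIs of slow-rich spots and 29 of the 38815269 UMIs of other spots, below the minimum. Of the BMP pathway, none of 11 genes was past 1.5-fold either way, and Bmp4 was at 9.34 against 9.51 CPM, where reads of the transgene and of the mouse gene cannot be told apart.

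The same rule was then applied to the 3 injured sections, which took no part in choosing the day 0 spots. It gave 216, 302 and 295 slow-rich spots at days 1, 3 and 7, with thresholds of 0.231%, 0.122% and 0.133% of UMIs. The sections differ in depth (median 6322 to 21029 UMIs a spot), and at day 1 513 spots fell under 2000 UMIs. From 1539 to 1823 of the day 0 spot barcodes recur in each, as the arrays use 1 barcode set, and 1341 are in all 4.

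Of the 565 genes higher at day 0, 282 had enough UMIs at day 1 and 110 of these (39.0%) were again at 1.5-fold or more, where 4.49% of all genes were. At day 3 it was 117 of 532 (22.0%), where 3.37% of all genes were, and at day 7 125 of 541 (23.1%), where 7.98% were. In the other direction stood 29, 33 and 21 genes (10.3%, 6.20% and 3.88% of those compared). Among all genes compared in those sections, 1121 of 8803, 958 of 12173 and 494 of 12005 were at 1/1.5-fold or less. Of the 565 genes, 281 were compared in all 4 sections, and 45 of these were at 1.5-fold or more in each. They included Csrp3, Tpm3, Myoz2, Myh2, Ankrd2, Atp2a2, Fhl1, Ldhb, Mb, Mybpc1, Actn2, Casq2, Fabp3, Idh2, Plin5, Acaa2 and Vgll2. The share of all genes that did so was not counted, and the spots of each section were chosen on the same 6 genes, so the 45 are given as a list only.

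The levels of these genes also varied from section to section. Over the sections of days 0, 1, 3 and 7, in that order here and below, Csrp3 was at 191, 5201, 1265 and 196 CPM in slow-rich spots and at 27.5, 655, 535 and 32.3 CPM in other spots. Its ratios were 6.96, 7.94, 2.36 and 6.06. Mb was at 2887, 4290, 3734 and 3563 CPM in slow-rich spots, with ratios of 3.03, 5.22, 2.56 and 2.15. Atp2a2 had ratios of 4.04, 9.57, 3.38 and 3.66 and Myh2 of 4.49, 14.0, 3.47 and 5.28. The slow-fibre list had medians of 2.28, 3.06, 1.24 and 1.94, fatty acid genes 0.51, 0.71, 0.36 and 0.33, and fast-fibre genes -0.34, -0.39, -0.59 and -0.41. Nuclear respiratory chain genes had 0.23, 0.26, 0.29 and 0.12. The mitochondrially encoded genes had 0.28, -0.10, 0.24 and -0.36, so their direction was not the same in all sections. With 1 section a day no difference between days was tested.

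At days 3 and 7 slow-rich spots held more regeneration RNA than the other spots of their section, at 1650 against 506 and 2934 against 488 CPM summed over the list. At day 1 the sums were 67.8 against 57.5 CPM (ratio 1.18; 0.977 to 1.41) and 2 of the 6 genes had enough UMIs. The list medians were 0.87, -0.11, 1.86 and 2.66 in order of time. Myh3, the embryonic chain, was at 361 against 68.2 CPM at day 3 and 300 against 43.1 at day 7, and Myh8 at 688 against 110 CPM at day 7. Myl4 was at 1395 against 220 CPM there. At day 7 slow-rich spots also held more macrophage RNA, at 3914 against 1485 CPM summed. Of 7 macrophage genes 5 were at 1.5-fold or more there, where 7.98% of all genes were. At days 1 and 3 the macrophage sums were lower, at 1165 against 1347 and 5725 against 7121 CPM. Actc1, among the lowest at day 0, had ratios of 0.314, 0.433, 3.81 and 1.61 over the 4 sections. Regenerating fibres express slow light chains and troponins too. Over slow-rich spots, the rho of Myh7 with Tnni1 was 0.61 at day 0 and 0.02 at day 7. With Tnnc1 it was 0.63 and 0.41, and with Tnnt1 0.55 and 0.36. With the light chains it was no lower at day 7, at 0.61 and 0.69 for Myl2 and 0.31 and 0.42 for Myl3. How far regenerating fibres supplied the 6 genes of the rule at days 3 and 7 was not tested.

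The same correlations were read in the injured sections. Mb had a rho with Myh2 of 0.69, 0.76, 0.74 and 0.69 over the slow-rich spots of days 0, 1, 3 and 7, and with Myh7 of 0.01, 0.63, 0.25 and 0.50. Summed fatty acid genes had 0.66, 0.74, 0.60 and 0.67 with Myh2, and 0.02, 0.59, 0.11 and 0.36 with Myh7. Myh7 and Myh2 themselves had -0.22, 0.58, 0.01 and 0.30. In each section the fatty acid genes had the larger rho with Myh2. On the other side, Tpm3 had 0.59, 0.74, 0.53 and 0.62 with Myh7 and -0.11, 0.57, -0.26 and 0.16 with Myh2. Atp2a2 had 0.48, 0.66, 0.29 and 0.51 with Myh7 and 0.01, 0.60, -0.11 and 0.07 with Myh2, so both had the larger rho with Myh7 in each section.

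**Figure D5:**
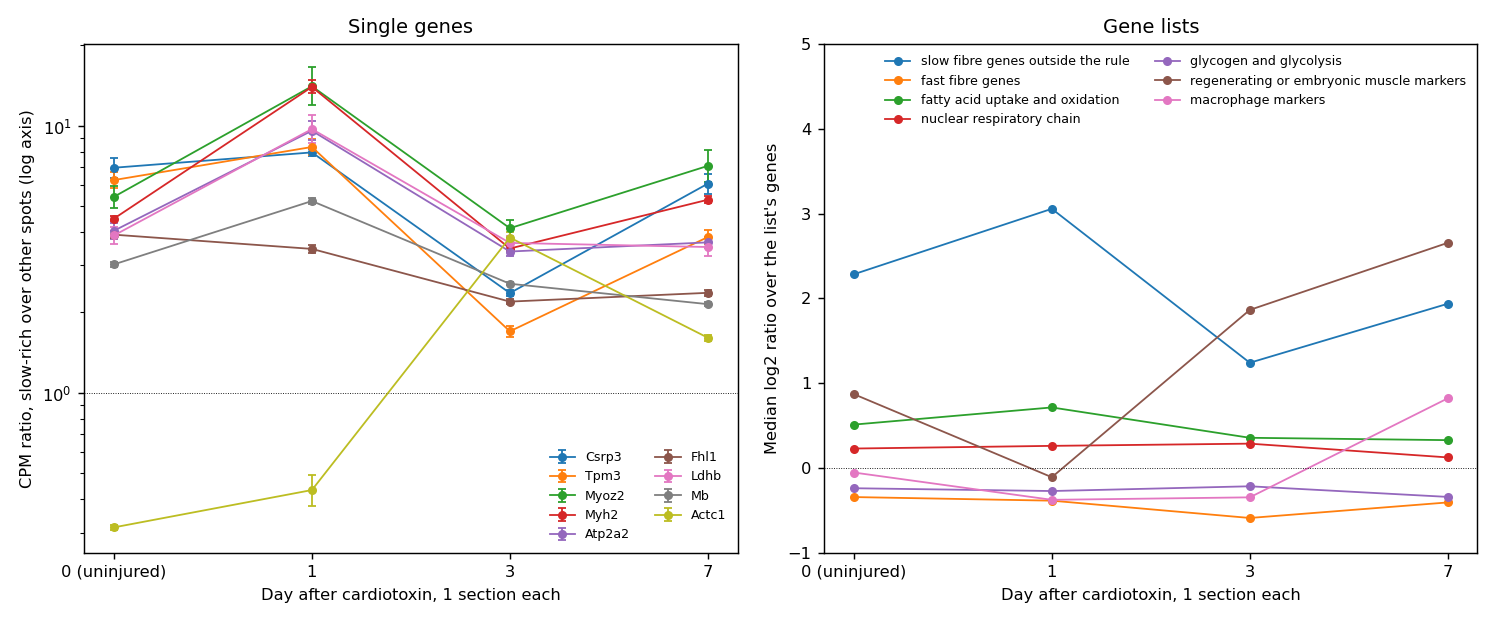
The left panel gives CPM ratios of slow-rich to other spots for 9 genes in the 4 sections, with exact 95% Poisson intervals on a log axis, and the right panel the median log2 ratio of 7 gene lists, each section having spots chosen by the same rule. Lines join the sections and imply no measured course. Csrp3 to Mb are above 1 in all 4 sections, Actc1 is at 0.314 at day 0 and 3.81 at day 3, and the regeneration list goes to 2.66 at day 7.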

How the data were processed

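Spatial RNA was captured on fresh frozen sections of tibial muscle on Visium arrays, with 1 section per day. What the authors deposited for each section is a matrix of unnormalised UMI counts, and its headers give Space Ranger 1.2.0. Other versions stand in the labels and in the study's methods, and mm10 is the build in the submitters' processing notes. Spot positions, images and the single-cell libraries were not used here. No doublet caller was run, as spots hold several cells.

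Spots under 2000 UMIs were left out, and UMIs were summed over the spots of a group and scaled to 1000000 (CPM). Genes with at least 100 UMIs over both groups were compared as CPM ratios with exact conditional Poisson intervals at 95%, and shares with Clopper-Pearson intervals. PCR duplicates are collapsed by UMIs, and intervals cover counting error only. With 1 section a day, and with spots chosen on the same counts, no p-value was computed. A higher or lower gene is one past 1.5-fold. A list's value is the median log2 ratio over its genes, with a gene at 0 UMIs entered at 3. Of the 332 genes in 30 lists all were among the 32285 features. Aldoa names more than 1 feature, and the first was used. A further list of cell type markers is not reported here.

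The members, lists and settings were chosen with earlier results of these data known. Genes were named if they were in a list or isoform pair, or if, among genes that were not mitochondrial, haemoglobin or rule genes and had 50 CPM in either group, they were among the 12 largest or 12 smallest ratios to other spots or the 6 largest or 6 smallest to Myh4-rich spots. Vegfa and the genes shared by all 4 sections fall under the same rule.

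The other settings were a total from which rule, mitochondrial and haemoglobin genes were removed, size factors by DESeq2, edgeR TMM, minimums of 10 and 1 UMIs per gene, means over spots, thinning to 2000 UMIs, spots of 4000 UMIs, the 80th and 95th percentiles, a score of 3 genes, members chosen on a random part of the UMIs with values from the rest, other spots of like pan-myofibre share, and thresholds of a lower fold and of 2-fold. The code for ratios and intervals was checked on simulated Poisson group sums, which hold neither the spread between spots nor the choice of spots. Computation used DESeq2 1.42.0 and edgeR 4.0.16 in R 4.3.3, and SciPy 1.17.1, NumPy 2.4.6, matplotlib 3.10.9 and pandas 2.3.3 in Python 3.11.15. Promoters and microRNAs are RefSeq's (GRCm38.p6).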

Additional observations from a re-analysis of the deposited data

How the results depend on the processing

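No paired analysis was possible because each day had 1 section. No setting changed the direction of the slow-fibre, fast-fibre or nuclear respiratory chain median, and all counts depend on the settings. Against other spots, genes at 1.5-fold or more numbered 345 under TMM, 336 under DESeq2 size factors, 1560 and 2689 with minimums of 10 and 1 UMIs, 292 after thinning, 134 against spots of like pan-myofibre share, 2040 at the lower of the other folds and 108 at 2-fold. Genes lower numbered 461, 473, 1194, 3999, 545 at the 95th and 141 at the 80th percentile, 202 against the like spots, 852 and 79, and 267 after thinning. Against Myh4-rich spots, genes higher numbered 539, 502, 3947, 6414, 132 after thinning, 784 with members chosen on separate UMIs, 2666 and 409. Genes lower numbered 480, 527, 81 with the reduced total, 446, 1370, 49, 388 and 23. Genes higher at day 0 and again at day 1 numbered 301 and 580 with the lower minimums, 55 after thinning, 50 against the like spots, 362 and 38 at the other folds. At day 3 these were 318, 640, 58, 22, 407 and 34, and at day 7 403, 783, 55, 62, 623 and 34. Fewer or more genes compared, by construction, goes with the thinning and the minimums. For the others the cause was not tested.

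The slow-fibre median (2.28) was 2.16 under DESeq2 factors, 2.0 after thinning, 2.43 at the 95th percentile, 2.15 with 3 score genes, 2.04 with members chosen on separate UMIs (190 of 209 shared) and 1.71 against the like spots. The fast-fibre median (-0.34) was -0.46 under TMM, -0.47 under DESeq2 factors, -0.28 with the reduced total, -0.33 as means over spots, -0.36 with 4000 UMIs, -0.39 and -0.33 at the 95th and 80th percentiles, -0.30 with 3 score genes and -0.15 against the like spots. The nuclear respiratory chain median (0.23) was 0.11, 0.10, 0.29 with the reduced total and 0.11 against the like spots.

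Of the values past 1.5-fold against other spots, directions turned for 2 of 7 list medians, the regeneration list (-0.085 after thinning) and the cardiac list (2.41 and 2.95 with minimums of 10 and 1 UMIs, where more than Actc1 counted). They turned for 2 of 80 genes, both at the 95th percentile, Chrnd (-1.2) and Chrne (-0.47). Of the values within 1.5-fold, 8 of 24 list medians and 67 of 247 genes changed sign in at least 1 setting, among them the junction median (-0.055 at the 95th percentile), the macrophage median (0.22 at the 80th), the BMP median (-0.036 under TMM) and those of satellite cell, endothelial, stromal, pan-myofibre and fast-regulator genes.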
